A study of Mus musculus with 6 samples.

Results

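A set of 10 transcription factor genes of the epithelium were followed: the Ets factors Elf3, Elf5, Ehf and Spdef, the grainyhead factors Grhl1, Grhl2 and Grhl3, the CP2 factor Tfcp2l1, the zinc finger factor Ovol1, and Trp63, which encodes p63. They were chosen by symbol for their known roles in epithelium, and all 10 were found among the 24067 genes of the deposited table. The tissue was the submandibular gland of embryos of the ICR mouse strain on embryonic day 13 (E13), a stage at which the gland is an epithelial rudiment that branches within mesenchyme. The control group and the group treated with blebbistatin, an inhibitor of non-muscle myosin II, held 3 libraries each. No transgene, deletion or second agent is named for either group. How much blebbistatin was given and for how long, what the controls received and how many glands made up a library are not stated in the labels. The labels do not tie the 3 libraries of either group to different litters or cultures, so p-values describe only how these libraries vary, and that variation may be technical.

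These factors act at different levels of an epithelial programme. Trp63 sustains the basal cells of stratified and glandular epithelia and activates keratins, integrins and other proteins that anchor cells to the basement membrane. The grainyhead factors bind and open enhancers of junction and barrier genes, the epithelium-restricted Ets factors act in secretory and barrier differentiation, and Ovol factors repress mesenchymal and progenitor genes. Tfcp2l1 is known for its part in duct epithelia, such as the kidney collecting duct and salivary ducts.

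Values are FPKM, fragment numbers scaled by transcript length and by the total of the library, so that levels can be compared between genes. The totals per library, estimated from the spacing of low FPKM values, were 29100000 to 35300000 fragments, and 11453 to 11592 genes per library reached 1 FPKM. Epithelial keratins and junction proteins were abundant, with a summed FPKM of the 6 epithelial markers from 1281 to 1637 in controls and from 1176 to 1454 with blebbistatin. All 5 endothelial markers were below 1 FPKM in every library, as were Twist1 and Twist2 of the 10 mesenchymal markers. The sum of these 10 (281 to 359 in controls, 338 to 375 with blebbistatin) was mostly vimentin (Vim). Apart from Vim, each mesenchymal marker was highest in control replicate 1. Col3a1 was at 7.26 FPKM there and at most 2.18 in any other library, and Col1a1 at 3.06 and at most 1.02. Of the other marker lists, 4 of 5 neuronal genes, Foxd3 among the 6 Schwann cell genes, Ptprc, Csf1r and Cd3e of 5 leukocyte genes and Myog and Myod1 of 5 muscle genes stayed below 1 FPKM throughout, with Cd3e listed at 0. Globin-rich red blood cell genes summed to between 1.10 and 246 FPKM, with overlapping groups. The label names the whole gland and the title of the series epithelial buds, and the marker values are mostly those of epithelium. End bud markers summed to 781 to 857 FPKM in controls and 524 to 656 with blebbistatin, without overlap. Duct and basal markers, a list that holds Trp63 itself, summed to 366, 266 and 249 in controls and to 482, 364 and 279 with blebbistatin. In bulk RNA, fewer cells of a type and less RNA per cell cannot be told apart.

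The 10 genes ranged from Spdef, above 46.8% of all genes in the table by mean FPKM, to Trp63, above 93.2%, and none passed the test between the groups. Of the 9 that reached a mean of 1 FPKM and were tested, 0 passed an adjusted p of 0.05 (limma on log2(FPKM + 1), Benjamini-Hochberg over 11540 genes), against 9 of all genes tested (0.078%). At an unadjusted p under 0.05 the count was also 0, against 9.36% of all genes. In 0 of the 9 were the groups apart, meaning that no library of one group lay within the range of the other, against 14.3% of all genes. In all, 7 had a higher mean log2 level with blebbistatin and 2 a lower one, and their log2 fold changes had a median of 0.10 (0.01 for all genes tested, of which 55.2% were above 0). The adjusted p-values ran from 0.849 for Ovol1 to 0.999 for Elf3 and Ehf. The log2 fold change of each of the 9 genes is given with its 95% interval or that of its fold, since missing the threshold does not show that a level was the same in both groups.

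**Figure D1:**
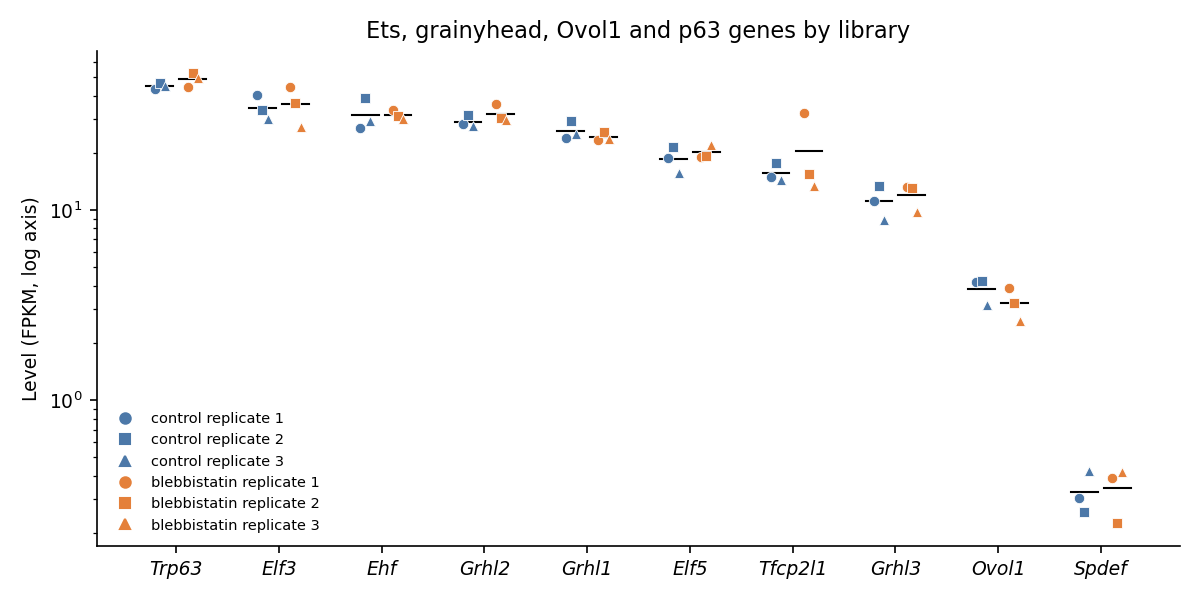
FPKM of the 10 genes in each of the 6 libraries on a log axis, with controls in blue, blebbistatin in orange and black lines at the group means. Trp63 is the highest and Spdef the lowest, the groups overlap for all 10 genes, and the single high point of Tfcp2l1 is blebbistatin replicate 1 at 32.3 FPKM.

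Trp63 had the highest level per length of the 10 genes. Its mean over the 6 libraries was 46.8 FPKM, above 93.2% of all genes in the table. FPKM was 43.1, 46.5 and 45.1 in the controls and 44.5, 52.5 and 49.2 with blebbistatin. The lowest treated library lay within the control range, so the groups overlapped. Means were 44.9 ± 1.73 and 48.7 ± 4.02 (SD, n = 3 each), and the log2 fold change was 0.11 ± 0.09 (SE, limma adjusted p = 0.891). As a fold this was 1.08, with a 95% interval from 0.933 to 1.25. Trp63 was also the steadiest of the 9 tested genes, with an SD of log2 FPKM of 0.103 over the 6 libraries, smaller than the median over all genes tested (0.137).

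The gene lies on mm10 chromosome 16 from 25683765 to 25892088 on the plus strand and has 2 start sites in the annotation. The upstream promoter gives TAp63, which carries the transactivation domain, and the internal promoter gives ΔNp63, the form of basal cells, which lacks it. The first coding stretches of both forms are shown from the mm10 reference (GRCm38, plus strand), with the start codon in capitals, because they separate the forms that follow.
TA form, chr16:25684290-25684351: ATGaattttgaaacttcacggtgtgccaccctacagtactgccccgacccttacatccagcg
ΔN form, chr16:25802060-25802101: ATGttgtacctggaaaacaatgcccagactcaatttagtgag

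Nearly all Trp63 RNA was assigned to the ΔN start. Of the 8 annotated transcripts, 5 begin at the ΔN start and 3 at the TA start. The ΔN share of the summed FPKM was 99.94%, 99.93% and 100% in the controls and 99.88%, 99.91% and 100% with blebbistatin. The 3 TA transcripts together reached at most 0.0513 FPKM in any library. The shares overlapped between groups, with a difference of -0.02 percentage points (two-sided exact permutation test, p = 0.6). With 3 libraries against 3 this test cannot give a p below 0.1.

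ΔNp63 transcripts differ further in their 3′ ends, named α, β and γ, and the α end encodes a sterile alpha motif and an inhibitory tail that γ lacks. The α end held 82.0%, 82.6% and 78.5% of the summed Trp63 FPKM in the controls and 78.5%, 76.8% and 82.1% with blebbistatin (exact permutation p = 0.5). The γ end held 18.0%, 17.1% and 19.7% against 19.98%, 22.6% and 17.2% (exact permutation p = 0.4), and the β end held at most 1.86% in any library. The make-up by 3′ end therefore overlapped between the groups for α and for γ.

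Within α and γ, a coding exon that begins at 25866075 ends either at 25866199 or 12 nt further, at 25866211. The longer end adds 4 codons and keeps the reading frame. The joined sequence across this exon and the next one, which runs from 25868167 to 25868249, is shown for both forms because it tells the ΔNα transcripts described next apart. The added bases are in capitals, with 24 bases of the exon before them and 24 of the next exon after them (GRCm38, plus strand).
Longer exon end: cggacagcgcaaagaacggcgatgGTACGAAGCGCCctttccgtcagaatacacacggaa
Shorter exon end: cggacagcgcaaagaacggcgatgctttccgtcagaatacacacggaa

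The ΔNα transcript with the longer exon end (NM_011641) was at 19.5, 18.9 and 15.9 FPKM in control libraries and at 21.0, 23.6 and 23.2 with blebbistatin. Every treated library was above every control (6.9% of all transcripts tested were apart in this direction). Its log2 fold change was 0.31 ± 0.10 (SE, 95% interval 0.06 to 0.55), with an unadjusted p of 0.0202 and a limma adjusted p of 0.464 over 14460 transcripts, so that it did not pass the test. The ΔNα transcript with the shorter end (NM_001127264) was at 15.8, 19.4 and 19.5 FPKM in control libraries and at 13.9, 16.6 and 17.3 with blebbistatin. These groups overlapped, and the log2 fold change was -0.19 ± 0.12 (limma adjusted p = 0.843).

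Among the 20 annotated transcripts of the 10 genes, 13 reached a mean of 1 FPKM. Of these, 0 passed the adjusted threshold (0.00692% of all transcripts tested), 1 had an unadjusted p under 0.05 (8.08% of all) and the same one had its groups apart (13.3% of all). The share of the shorter-ended ΔNα transcript within Trp63 was below the control range in every treated library (4.44% of all shares tested were apart and lower), with a mean difference of -7.92 percentage points, an unadjusted p of 0.0266 and a limma adjusted p of 0.962. It was 1 of 6 member transcripts that entered the share test. Over all 4997 transcripts in that test, 0% passed the adjusted threshold, 4.66% had an unadjusted p under 0.05 and 9.37% had their groups apart. Counts of 1 among 13 transcripts and 1 among 6 shares do not set these transcripts apart from the rest.

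The γ transcripts were lower and did not follow the α pair. The longer-ended ΔNγ transcript (NM_001127263) was at 4.03, 5.17 and 7.38 FPKM in control libraries and at 6.03, 5.54 and 5.16 with blebbistatin (limma adjusted p = 0.999). The shorter-ended one (NM_001127265) was at 3.72, 2.81 and 1.499 FPKM in control libraries and at 2.85, 6.32 and 3.30 with blebbistatin (limma adjusted p = 0.828). Both pairs of groups overlapped. The ΔNβ transcript (NM_001127262) was at most 0.841 FPKM and was not tested.

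Summing transcripts by exon end, a grouping made after their values were seen, gave 54.6%, 52.2% and 53.5% with the longer end in the controls and 62.3%, 56.3% and 58.2% with blebbistatin. The treated libraries were all above the controls. The difference was 5.52 percentage points (exact permutation p = 0.1, the smallest possible, adjusted p = 0.4 over the 8 Trp63 shares compared). The summed FPKM with the longer end was 23.5, 24.3 and 24.1 in the controls and 27.7, 29.5 and 28.7 with blebbistatin, and without it 19.6, 22.3 and 21.0 against 16.8, 22.9 and 20.6. Among ΔNα alone the longer end held 55.2%, 49.3% and 44.9% in the controls and 60.1%, 58.8% and 57.3% with blebbistatin (exact permutation p = 0.1, adjusted p = 0.4). This share is made of the ΔNα transcripts already described, so its p adds no separate support. Among ΔNγ alone the direction was the opposite, with a difference of -8.10 percentage points and overlapping groups (exact permutation p = 0.5). These estimates rest on the fragments that cross a difference of 12 nt, and their number is not given. No error is given for the assignment of fragments to transcripts either.

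**Figure D2:**
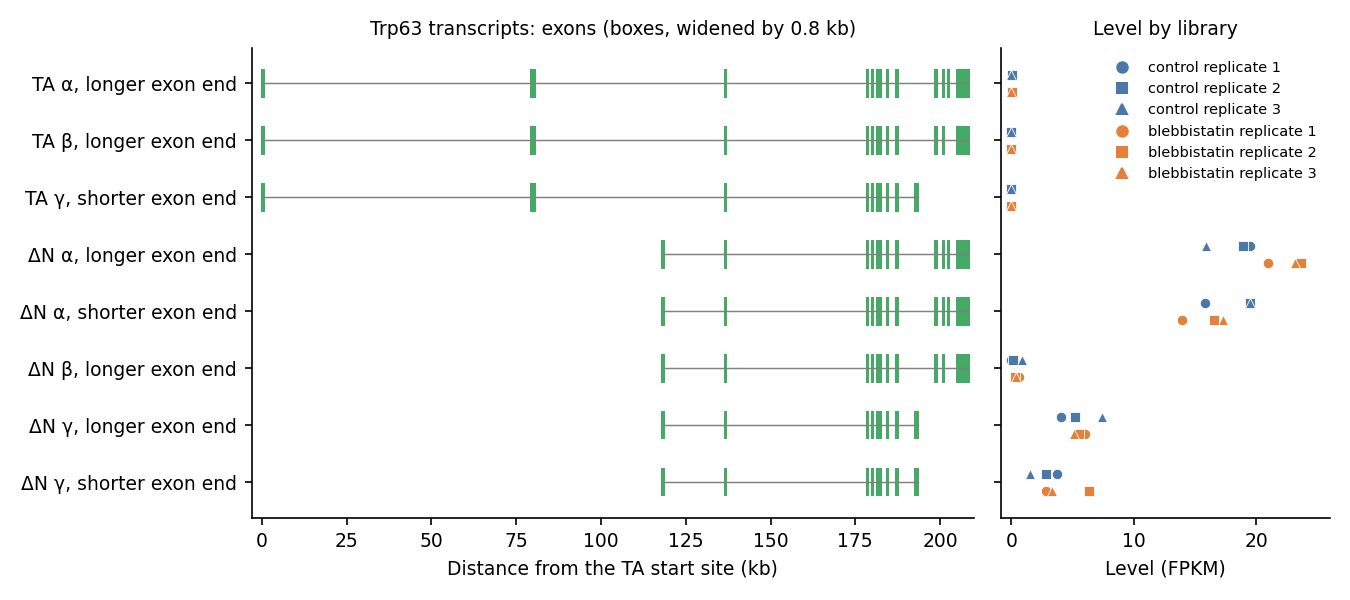
Exons of the 8 annotated Trp63 transcripts drawn to scale by position relative to the gene's start, with boxes widened so that they can be seen, beside the FPKM of each transcript in the 6 libraries. The signal sits in the transcripts of the ΔN start, and the ΔNα transcript with the longer exon end is the one whose groups do not overlap.

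**Figure D3:**
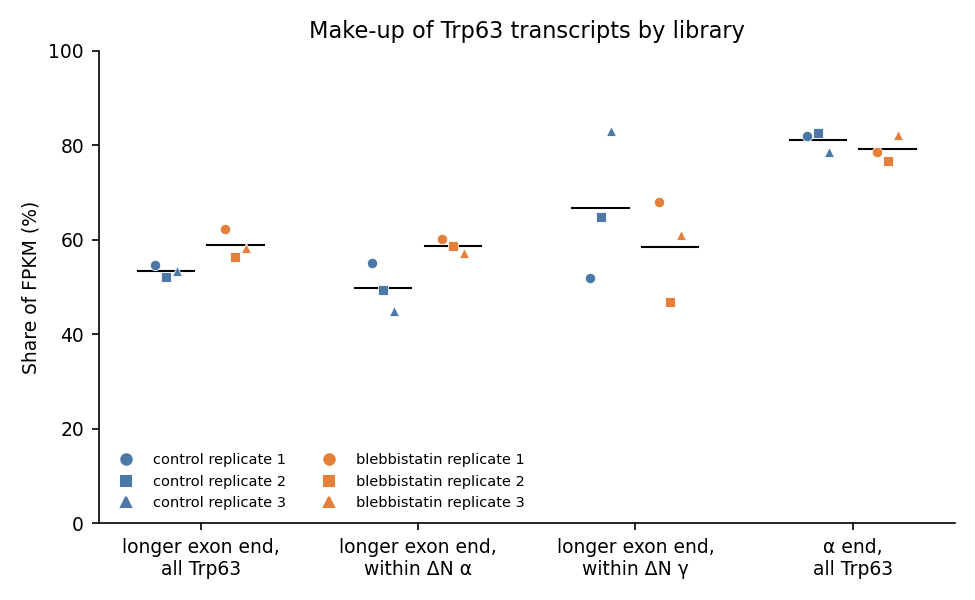
Share of FPKM with the longer exon end in each library, over all Trp63, within ΔNα and within ΔNγ. The share with the α end over all Trp63 is drawn beside them. Over all Trp63 the longer end holds 52.2% to 54.6% in controls and 56.3% to 62.3% with blebbistatin. This grouping was made after the values were seen (exact permutation p = 0.1, adjusted p = 0.4). Within ΔNγ the direction is the opposite and the groups overlap.

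Among the 4 Ets genes of the set, Elf3, an epithelium-specific factor of differentiating epithelia, had the highest mean level. FPKM was 40.3, 33.7 and 30.0 in the controls and 44.7, 36.6 and 27.3 with blebbistatin. Replicate 3 was the lowest of each group, and the treated range spanned the control range. Means were 34.6 ± 5.21 and 36.2 ± 8.67 (SD, n = 3 each), with a log2 fold change of 0.04 ± 0.18 (SE, 95% interval -0.37 to 0.46, limma adjusted p = 0.999). The summed level of 12 stratified oral and periderm markers was also lowest in replicate 3 of each group (369, 281 and 213 FPKM in controls, 321, 247 and 171 with blebbistatin). So was that of the epithelial markers (1595, 1637 and 1281 FPKM in controls, 1454, 1417 and 1176 with blebbistatin). The sums of the duct and basal and of the mesenchymal markers were lowest there as well. The part of these sums in the result was not tested. The gene lies on chromosome 1 from 135253574 to 135258472 on the minus strand. Its 2 annotated transcripts differ in an exon of 282 or 222 nt, and the form with the longer exon held 44.7%, 47.3% and 48.9% in the controls and 47.5%, 48.0% and 47.6% with blebbistatin (exact permutation p = 0.7).

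Ehf, an Ets factor of glandular and barrier epithelia, and Elf5, which drives alveolar differentiation in the mammary gland, are neighbours on chromosome 2. Ehf runs from 103263433 to 103303196 on the minus strand and Elf5 from 103412098 to 103450988 on the plus strand, 108901 bases apart with 1 annotated gene between them. Ehf was at 27.0, 38.7 and 29.5 FPKM in control libraries and at 33.8, 31.2 and 30.0 with blebbistatin. All treated libraries were within the control range. Means were 31.7 ± 6.16 and 31.7 ± 1.96 (SD, n = 3 each), with a log2 fold change of 0.01 ± 0.13 (SE, 95% interval -0.30 to 0.32, limma adjusted p = 0.999). Elf5 was at 18.8, 21.3 and 15.7 FPKM in control libraries and at 19.0, 19.2 and 22.1 with blebbistatin. Its lowest library was a control and its highest a treated one, and the groups overlapped. Its log2 fold change was 0.11 ± 0.12 (SE, 95% interval -0.17 to 0.39, limma adjusted p = 0.963). The ratio of Ehf to Elf5 within a library was 1.43, 1.81 and 1.88 in the controls and 1.78, 1.62 and 1.36 with blebbistatin. The groups overlapped (exact permutation p = 0.5). Whether the ratio of these neighbours varied less than that of other gene pairs was not tested.

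Elf5 and Grhl1 each have 2 annotated start sites, and in both nearly all FPKM came from one of them. In every library at least 99.65% of Elf5 FPKM was assigned to the downstream start at 103424068. For Grhl1, at least 99.99% was assigned to the upstream start at 24572287 on chromosome 12. The 250 bases before each start are shown because the values separate a used start from a start with almost no assigned RNA (RefSeq promoter table, GRCm38.p6, plus strand). Matches on either strand to GGAAG, the Ets core GGAA followed by a G, are in capitals.
Elf5 start with little RNA, chr2:103411848-103412097: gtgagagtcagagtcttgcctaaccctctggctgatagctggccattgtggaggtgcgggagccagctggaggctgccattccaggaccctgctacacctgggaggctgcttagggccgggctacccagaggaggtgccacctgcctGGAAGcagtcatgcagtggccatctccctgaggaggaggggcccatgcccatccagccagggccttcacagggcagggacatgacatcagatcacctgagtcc
Elf5 start with nearly all RNA, chr2:103423818-103424067: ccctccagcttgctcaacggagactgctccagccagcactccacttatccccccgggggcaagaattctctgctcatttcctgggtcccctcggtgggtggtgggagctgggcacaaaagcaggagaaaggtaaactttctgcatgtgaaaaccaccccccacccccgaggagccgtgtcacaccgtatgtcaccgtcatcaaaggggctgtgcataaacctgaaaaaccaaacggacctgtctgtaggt
Grhl1 start with nearly all RNA, chr12:24572037-24572286: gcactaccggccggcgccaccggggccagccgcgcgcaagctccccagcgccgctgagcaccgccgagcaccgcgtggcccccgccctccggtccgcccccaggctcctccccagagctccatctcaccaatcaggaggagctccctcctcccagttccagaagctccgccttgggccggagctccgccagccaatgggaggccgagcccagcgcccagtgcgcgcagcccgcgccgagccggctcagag
Grhl1 start with little RNA, chr12:24580469-24580718: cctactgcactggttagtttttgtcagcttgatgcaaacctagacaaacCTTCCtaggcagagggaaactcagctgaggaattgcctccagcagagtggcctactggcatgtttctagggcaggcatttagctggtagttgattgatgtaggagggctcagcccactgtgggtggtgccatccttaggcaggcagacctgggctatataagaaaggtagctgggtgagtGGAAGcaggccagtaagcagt

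The Elf5 start with little RNA had 1 match to GGAAG and the used start 0. The Grhl1 start with little RNA had 2 matches and the used start 0. The windows of both used starts do hold the shorter GGAA on the reverse strand, so the difference is one of the longer string only. GGAAG is found in 64.1% of the 32851 RefSeq promoter windows of the same length. Across the 8 windows of 6 of the genes in that table (Tfcp2l1, Elf3, Elf5, Grhl3, Grhl1 and Spdef), neither the grainyhead motif AACNGGTT nor the p63 motif CATGNNNNNNCATG was present on either strand, and they are in 1.79% and 0.490% of all windows. GGAAG matches numbered 1 for Tfcp2l1, 1 for Grhl3, 3 for Spdef and 0 for Elf3. A match describes letters only and is not a binding site, and a window without a match says nothing of the factor.

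Spdef, the Ets factor of goblet and mucous cells, was the only one of the 10 below 1 FPKM in all 6 libraries and was not tested. Spdef FPKM was 0.307, 0.258 and 0.426 FPKM in control libraries and at 0.390, 0.225 and 0.419 with blebbistatin. The groups overlapped. These values correspond to an estimated 11.0 to 21.1 fragments per library, so that a change could not be measured at this depth with any precision. The gene lies on chromosome 17 from 27714447 to 27728951 on the minus strand.

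The 3 grainyhead genes were all present, with Grhl2 and Grhl1 well above Grhl3. Grhl2, which is needed for closure of the neural tube and for junction genes in simple epithelia, was at 28.4, 31.4 and 27.7 FPKM in control libraries and at 36.1, 30.4 and 29.7 with blebbistatin. The groups overlapped, with blebbistatin replicate 1 the highest library. Its log2 fold change was 0.13 ± 0.10 (SE, 95% interval -0.11 to 0.36, limma adjusted p = 0.886). It lies on chromosome 15 from 37233036 to 37363568 on the plus strand.

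Grhl1, known for desmosomal cadherins in epidermis, was at 24.0, 29.6 and 25.0 FPKM in control libraries and at 23.4, 25.8 and 23.5 with blebbistatin. The groups overlapped, with the lowest library a treated one and the highest a control. Its log2 fold change was -0.10 ± 0.10 (SE, 95% interval -0.34 to 0.13, limma adjusted p = 0.945). Grhl3, which acts in the epidermal barrier and wound closure, was at 11.2, 13.3 and 8.88 FPKM in control libraries and at 13.2, 12.998 and 9.72 with blebbistatin. Replicate 3 was the lowest of each group, and the log2 fold change was 0.10 ± 0.16 (SE, 95% interval -0.27 to 0.47, limma adjusted p = 0.986). Grhl1 runs from 24572287 to 24617391 on chromosome 12 (plus strand) and Grhl3 from 135541888 to 135573620 on chromosome 4 (minus strand).

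Within a library, Grhl1 made up 37.8%, 39.8% and 40.6% of the summed FPKM of the 3 grainyhead genes in the controls and 32.2%, 37.3% and 37.4% with blebbistatin. All treated libraries were below all controls. This was the smallest exact permutation p that the design allows (p = 0.1), and it was 1 of 13 ratios among the members that were compared, with an adjusted p of 1. Grhl2 made up 44.7%, 42.3% and 45.0% in the controls and 49.6%, 43.9% and 47.1% with blebbistatin, and the groups overlapped (exact permutation p = 0.3).

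Tfcp2l1, a CP2 factor of the same superfamily as the grainyhead genes, had the widest spread between libraries of the 9 tested genes. FPKM was 14.8, 17.7 and 14.4 in the controls and 32.3, 15.5 and 13.4 with blebbistatin. Replicate 1 was the single high library of the treated group, and the other two were near the controls. Means were 15.6 ± 1.79 and 20.4 ± 10.3 (SD, n = 3 each), with a log2 fold change of 0.26 ± 0.28 (SE, 95% interval -0.38 to 0.91, limma adjusted p = 0.957). Without blebbistatin replicate 1 the log2 fold change was -0.11 ± 0.12 (limma adjusted p = 0.952), so the direction of the mean rests on that library. The same library had the highest duct and basal marker sum (482 FPKM) and the lowest end bud marker sum (524 FPKM), and the part of these in the result was not tested. The SD of log2 FPKM of Tfcp2l1 over the 6 libraries was 0.445, larger than that of 97.1% of the genes tested. The gene runs from 118627945 to 118685168 on chromosome 1 (plus strand).

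Ovol1, a repressor that limits progenitor proliferation in epidermis, was at 4.20, 4.21 and 3.16 FPKM in control libraries and at 3.90, 3.23 and 2.61 with blebbistatin. Replicate 3 was the lowest of each group and the groups overlapped. Means were 3.86 ± 0.602 and 3.25 ± 0.643 (SD, n = 3 each), and the log2 fold change of -0.20 ± 0.14 (SE, 95% interval -0.53 to 0.13) had the smallest unadjusted p of the 9 genes, 0.208 (limma adjusted p = 0.849). The gene runs from 5549137 to 5560575 on chromosome 19 (minus strand).

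**Figure D4:**
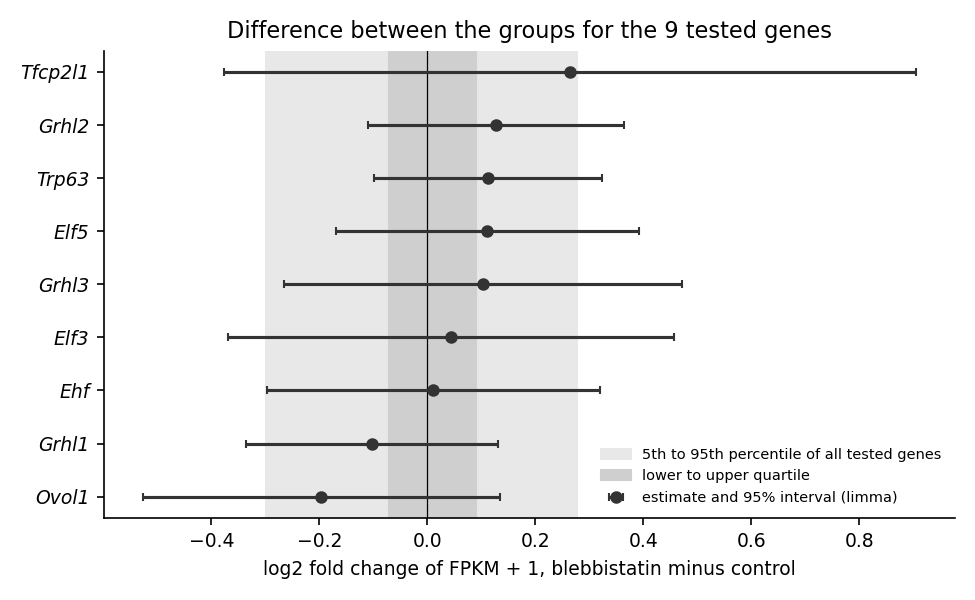
Log2 fold change (blebbistatin minus control, log2(FPKM + 1)) of each tested gene with its 95% interval, over bands for the middle of all 11540 genes tested. The intervals of all 9 genes include 0, and Tfcp2l1 has the widest (-0.38 to 0.91).

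Ordered by mean FPKM over the 6 libraries, the genes ran Trp63 (46.8), Elf3 (35.4), Ehf (31.7), Grhl2 (30.6), Grhl1 (25.2), Elf5 (19.4), Tfcp2l1 (18.0), Grhl3 (11.5), Ovol1 (3.55) and Spdef (0.337). Neighbours were separated in every library, with ranges that did not overlap, at Grhl1 over Elf5, Tfcp2l1 over Grhl3, Grhl3 over Ovol1 and Ovol1 over Spdef. The ranges of the other neighbours overlapped, and Trp63 exceeded Elf3 in 5 of 6 libraries. No exon of these 10 genes overlapped an exon of another annotated gene.

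Dsc2, Nsun3, Unc5b and Mmp15 had the level pattern most like that of Ovol1 over the 6 libraries. Likeness was the root mean square difference of log2(FPKM + 1) centred on each gene's mean, over 11539 other genes tested. It was 0.0363 for Dsc2, a desmosomal cadherin, 0.0489 for Nsun3, 0.0507 for Unc5b and 0.0509 for Mmp15, against a median of 0.215 over all genes. Dsc2 was at 21.3, 21.0 and 16.6 FPKM in control libraries and at 21.2, 16.9 and 14.3 with blebbistatin. It is also in the lists of grainyhead targets and of Elf3, Elf5 and Ehf targets that follow. A gene at the same level in all 6 libraries would be at 0.193 from Ovol1, close to the median of 0.215. These values come from only 6 libraries, and what these genes share beyond their levels was not tested.

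**Figure D5:**
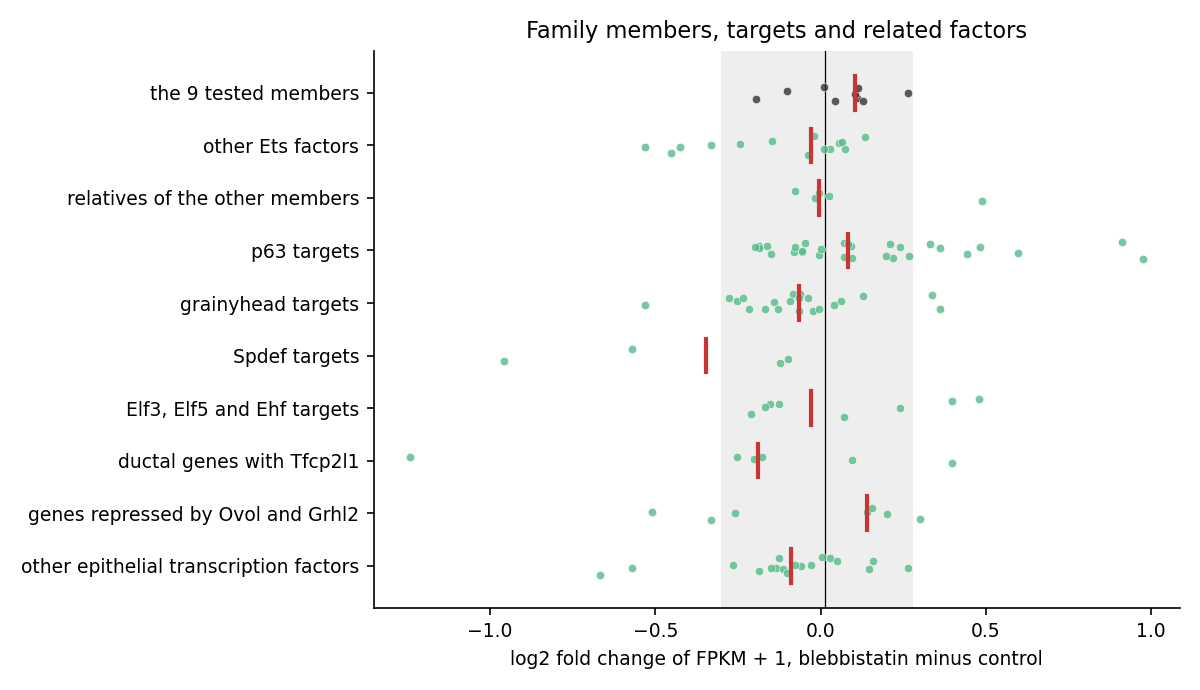
Log2 fold change (blebbistatin minus control) of each tested gene in 9 lists, with the list median in red, the all-gene median as a black line and the range from the 5th to the 95th percentile of all genes in grey. The median of p63 targets is 0.08 and of Spdef targets -0.35, and no gene of any list passed the adjusted threshold.

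A further 9 lists of related factors and known targets put the members in context. In all 9, 0 genes passed the adjusted threshold (0.078% of all genes tested). Over all genes tested, 9.36% had an unadjusted p under 0.05 in limma. The groups were apart and higher with blebbistatin in 7.48% of all genes and apart and lower in 6.8%. Among the p63 targets, 29 of 31 were tested. Of these, 18 had a higher and 11 a lower mean, with a median log2 fold change of 0.08, 6 had an unadjusted p under 0.05, 6 were apart and higher and 2 apart and lower, Bmp7 among them. The 4 p63 targets of smallest p were Dst, which encodes the plakin dystonin (3.41 ± 0.790 to 7.77 ± 2.23 FPKM, SD, n = 3, limma adjusted p = 0.125), Fgfr3, an FGF receptor (2.02 to 3.25 FPKM), Fras1, a basement membrane protein (2.26 to 4.06 FPKM), and Itga3, an integrin (40.0 to 46.8 FPKM). Without blebbistatin replicate 1 the median of the list was -0.03. Krt5, Krt14 and Krt15 of this list are also duct and basal markers, whose summed levels are given above, and the part of these in the list's values was not tested. Bmp7, a bone morphogenetic protein, was named after its values were seen.

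Grainyhead targets had 5 higher and 16 lower means among 21 of 22 tested, with a median of -0.07. Dropping blebbistatin replicate 1 brought it to -0.16 and dropping control replicate 3 to -0.14, whereas it was -0.027 without control replicate 1 and -0.025 without blebbistatin replicate 3. Of these, 1 had an unadjusted p under 0.05 (9.36% of all genes), 2 were apart and lower (6.8% of all) and 0 apart and higher. Prom2, an apical membrane protein, was at 10.2, 11.9 and 13.7 FPKM in control libraries and at 6.64, 8.28 and 8.90 with blebbistatin (log2 fold change -0.53 ± 0.13, limma adjusted p = 0.193). Rab25, a recycling GTPase of epithelia, was also apart, at 54.6 ± 5.01 and 46.8 ± 4.01 FPKM (SD, n = 3). Esrp2, an epithelial splicing factor whose exons overlap a gene on the opposite strand, was at 28.2 and 23.7 FPKM, and Lamb3, a laminin chain, at 14.6 and 19.2. Without stranded counting that overlap cannot be resolved for Esrp2.

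Of the 12 Spdef targets 4 reached the filter, and all 4 had a lower mean (median -0.35). The size of this median depends on the filter, at -0.10 with none and -0.96 with a minimum mean of 5 FPKM. Agr2, an endoplasmic reticulum protein of secretory cells, was at 6.60, 7.78 and 6.80 FPKM in control libraries and at 2.53, 4.61 and 2.59 with blebbistatin. The groups did not overlap, and the log2 fold change was -0.96 ± 0.18 (SE, limma adjusted p = 0.0929). Creb3l1, Galnt12 and Creb3l4 were at 2.78, 3.45 and 3.50 FPKM in control libraries and 1.58, 3.08 and 3.19 with blebbistatin, and of these Creb3l1 had an unadjusted p of 0.0236. Of 12 Elf3, Elf5 and Ehf targets 8 were tested, 4 higher and 4 lower (median -0.03). An unadjusted p under 0.05 was reached by 2 (9.36% of all genes). Without blebbistatin replicate 3 the median was 0.06, and without control replicate 2 it was 0.03. Fgfr2, an FGF receptor, at 37.0 and 44.0 FPKM, and Tgfbr2, a TGF-beta receptor, at 5.56 and 7.78 FPKM, were apart and higher. Stat5a, a mediator of prolactin signals, at 1.44 and 1.19 FPKM, was apart and lower.

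The ion transport and ductal genes listed with Tfcp2l1 had 6 of 12 tested, 2 higher and 4 lower (median -0.19). Of these, 1 had an unadjusted p under 0.05 (9.36% of all genes). Aqp5 of this list, which was not tested, is also an end bud marker. Without control replicate 2 the median was -0.095, and with no filter on low values it was -0.023. Kcnn4, a calcium-activated potassium channel, was at 29.2, 41.6 and 37.4 FPKM in control libraries and at 8.16, 19.8 and 18.6 with blebbistatin (log2 fold change -1.24 ± 0.30, limma adjusted p = 0.170). Its groups were apart, with the lowest library blebbistatin replicate 1, the library in which Tfcp2l1 was highest. Cftr, a chloride channel, was apart and higher at 0.794 and 1.46 FPKM, of which blebbistatin replicate 1 alone was at 2.48. Slc12a2, a chloride cotransporter, was at 128 and 111 FPKM and Scnn1a, a sodium channel subunit whose groups were apart, at 1.16 and 0.903. The duct and basal markers, a separate list, had 4 higher and 2 lower means (median 0.23).

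Genes named as repressed by Ovol1, Ovol2 or Grhl2 had 7 of 12 tested, 4 higher and 3 lower (median 0.14). Id2, an inhibitor of basic helix-loop-helix factors, was at 141 ± 8.23 and 99.1 ± 12.6 FPKM (SD, n = 3, limma adjusted p = 0.148) and Snai2, a repressor of epithelial cadherin, at 18.3 ± 1.41 and 22.8 ± 1.71 FPKM (limma adjusted p = 0.304). In this list 3 had an unadjusted p under 0.05 (9.36% of all genes). Snai2 was apart and higher (7.48% of all), and Id2 and Mmp14, a matrix protease at 82.8 and 69.2 FPKM, were apart and lower (6.8% of all). Leaving out blebbistatin replicate 1 gave a median of -0.19 and leaving out control replicate 1 one of -0.03. A minimum mean of 5 FPKM gave -0.05 and no filter 0.0043, so its direction rests on those libraries and on the filter. Among other Ets factors, 14 of 22 were tested, 6 higher and 8 lower (median -0.03). In that list 4 had an unadjusted p under 0.05 (9.36% of all genes), and 5 were apart and lower (6.8% of all). Without blebbistatin replicate 3 this median was 0.04, without control replicate 2 it was 0.03, and with no filter it was 0.0066. The 5 were Elk3 (19.7 to 14.1 FPKM, limma adjusted p = 0.224), Etv5 (218 to 163 FPKM, limma adjusted p = 0.342), Ets1 (6.34 to 4.82 FPKM), and, named after their values were seen, Etv4 and Erf. Etv4 and Etv5 are also end bud markers. Among the relatives, 5 of 6 were tested, 2 higher and 3 lower (median -0.0049), and Trp73, which encodes the p53 family member p73, was at 9.85, 8.07 and 7.16 FPKM in control libraries and at 13.3, 12.5 and 10.5 with blebbistatin (log2 fold change 0.49 ± 0.13, unadjusted p = 0.00515, limma adjusted p = 0.208), with the groups apart.

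The other epithelial transcription factors had 18 of 20 tested, 6 higher and 12 lower, with a median of -0.09. An unadjusted p under 0.05 was reached by 3 (9.36% of all genes), and 4 were apart and lower (6.8% of all). Dropping blebbistatin replicate 3 brought that median to -0.0047, dropping control replicate 2 to -0.022 and dropping control replicate 1 to -0.052. Among the 4 were Sox10, at 212 ± 5.42 and 143 ± 19.9 FPKM (SD, n = 3, limma adjusted p = 0.126) and Tfap2b at 55.2 and 35.0 FPKM. The part of the lower end bud marker sum in these values was not tested, and Sox10 is itself an end bud marker.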

How the data were processed

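RNA-seq of 3 control and 3 blebbistatin libraries was analysed. The submitters' processing notes name Cufflinks 2.2.1, TopHat2 2.0.13 and Bowtie2 2.2.3, and mm10 as the genome build. FPKM per gene and per transcript are the authors' own values in the deposited tables. The columns named BB were taken as blebbistatin and unnumbered columns as replicate 1. Fragment totals were estimated here from the spacing of low FPKM values.

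Because FPKM are not counts, log2(FPKM + 1) was tested with limma 3.58.1 (R 4.3.3, empirical Bayes with trend) on genes or transcripts with a mean of at least 1 FPKM, with Benjamini-Hochberg adjustment over all of them. A fold change on this scale understates that of low genes. Transcript shares were tested as arcsine square roots, for transcripts at a mean share from 0.05 to 0.95 of genes with at least 2 transcripts and 5 FPKM. Single values per library were tested with two-sided exact permutation tests. The fits were tested on simulated data. Promoter sequences are from RefSeq (GRCm38.p6), other sequences from GENCODE transcripts (GRCm38).

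Named genes are all members, every Trp63 transcript, up to 4 genes of smallest unadjusted p in each list, and the 4 genes most like the member of smallest p. Members, lists and rules were chosen with earlier results of these data known. Of the listed genes, Sprr2a1 was not analysed here, and some are not reported here. Alternatives were another pseudocount, other filters, quantile or median-of-ratios scaling, array weights, a replicate block and leaving out each library.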

Additional observations from a re-analysis of the deposited data

How the results depend on the processing

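None of the 9 tested members passed the adjusted threshold under any alternative run, the smallest adjusted p being 0.323 (Ovol1, with the replicate block). The count over all genes, 9, was 1 with no filter, 27 with a minimum mean of 5 FPKM, 14 with quantile normalization, 2 with median-of-ratios scaling, 57 with array weights and 1 to 13 with a library left out. The transcript count, 1, was 9 with no filter and 1 to 11 with a library left out, and the share count, 0, ran from 0 to 2. With replicate number as a block the gene count was 144. Deviations of same-numbered libraries correlated at 0.18, 0.09 and 0.25, each control correlating best with its own number, which hints at pairing. The fits and intervals given above do not use the block. With the block the SE was smaller for every tested member except Elf5. It went from 0.18 to 0.076 for Elf3, from 0.14 to 0.082 for Ovol1 and from 0.122 to 0.123 for Elf5. The block changed the call of no member. The Ehf log2 fold change, 0.01, turned to -0.0050 with quantile normalization, -0.00014 with median-of-ratios scaling and -0.041 with array weights. With a library left out it ran from -0.0935 to 0.16 for Ehf, -0.12 to 0.23 for Elf3, -0.036 to 0.24 for Grhl3, -0.11 to 0.50 for Tfcp2l1 and -0.13 to 0.24 for the longer-ended ΔNγ transcript of Trp63. The sign held but the size moved for Elf5 (0.00011 without control replicate 3, 0.21 without control replicate 2), Grhl1 (-0.014 without control replicate 2, -0.16 without control replicate 1), Grhl2 (0.042 without blebbistatin replicate 1), Ovol1 (-0.0856 without blebbistatin replicate 3, -0.305 without blebbistatin replicate 1) and Trp63 (0.0586 without blebbistatin replicate 2, 0.175 without blebbistatin replicate 1). List medians with a library left out ran from -0.028 to 0.14 for p63 targets and -0.16 to -0.025 for grainyhead targets. For Spdef targets they ran from -0.45 to -0.23, and for the ion transport and ductal genes from -0.26 to -0.095. For other epithelial factors they ran from -0.13 to -0.0047 and for the relatives from -0.046 to 0.025. The difference in ΔN share ran from -0.057 to 0.00066 percentage points. The cause was not tested. Spdef rested on an estimated 11.0 to 21.1 fragments per library. The fragments that separate the Trp63 transcripts differing by 12 nt were not counted.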
